A study of Mus musculus with 8 samples.

Results

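The 10 genes described here encode the core of the myostatin and activin pathway: the ligand gene Mstn and the ligand subunit gene Inhbb, the antagonist gene Fst, the type II receptor genes Acvr2a and Acvr2b, the type I receptor genes Acvr1b and Tgfbr1, the receptor-activated SMAD genes Smad2 and Smad3, and the inhibitory SMAD gene Smad7. They were taken by symbol from a table of 25655 gene rows, and all 10 had a row. RNA was measured in the gastrocnemius, a calf muscle, of male wild-type (WT) mice at day 4. The 3 sepsis libraries came from mice that received cecal slurry, gut contents in suspension that cause infection with many kinds of bacteria, and the 5 control libraries from mice given 10% glycerol. The labels do not say whether each library is a separate animal, so p-values measure the spread between these libraries only.

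Myostatin is a secreted protein of the transforming growth factor beta (TGF-beta) superfamily that muscle fibres make and that restrains muscle mass. Myostatin and activins bind a type II receptor, which recruits and phosphorylates a type I receptor, and that receptor phosphorylates the receptor-activated SMAD proteins, which enter the nucleus with the common partner encoded by Smad4. Follistatin, the product of Fst, binds these ligands and blocks them, and the Smad7 product blocks the type I receptor.

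Levels are given in CPM, a gene's count scaled to a common library size by the library's total and a composition factor. The libraries read the 3′ ends of transcripts, so counts were not divided by length. Each library held between 3086277 and 4016329 counts, and 1 read was worth 0.209 to 0.360 CPM, so Inhbb, Fst and Smad2 rest on few reads per library. Total counts averaged 3595872 ± 227155 in sepsis and 3581128 ± 343461 in controls (SD, n = 3 and 5), with p = 0.964 in a two-sided exact permutation test. Genes of the mitochondrial genome took 14.5% ± 2.19 of counts in sepsis and 23.6% ± 1.89 in controls, with p = 0.0179 in the same exact test, the smallest that 56 splits allow. Septic libraries differed more among themselves (chi-square per degree of freedom 12.2 to 29.5) than controls did (2.16 to 7.63).

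Among the 10 genes the type I receptor gene Acvr1b rose 3.09-fold, the type I receptor gene Tgfbr1 rose 1.52-fold and the receptor-activated SMAD gene Smad3 fell 5.22-fold. Of the other 7, Mstn, Fst, Acvr2a, Acvr2b, Smad2 and Smad7 did not pass the test, and Inhbb had too few reads to be tested. The test was edgeR's quasi-likelihood F test with Benjamini-Hochberg adjustment over 9810 genes and a threshold of 0.05. It called 25.2% of those genes higher and 25.2% lower, 50.4% in all, so 3 called of 9 tested members is not above that background. The groups did not overlap for 2 of the 9 tested members, Acvr1b above and Smad3 below, against 47.4% of all genes tested (23.1% above, 24.3% below). The number called higher was 4 without sepsis 2 and 1 without control 2, 3, 4 or 5, and the number called lower was 2 without control 5.

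**Figure D1:**
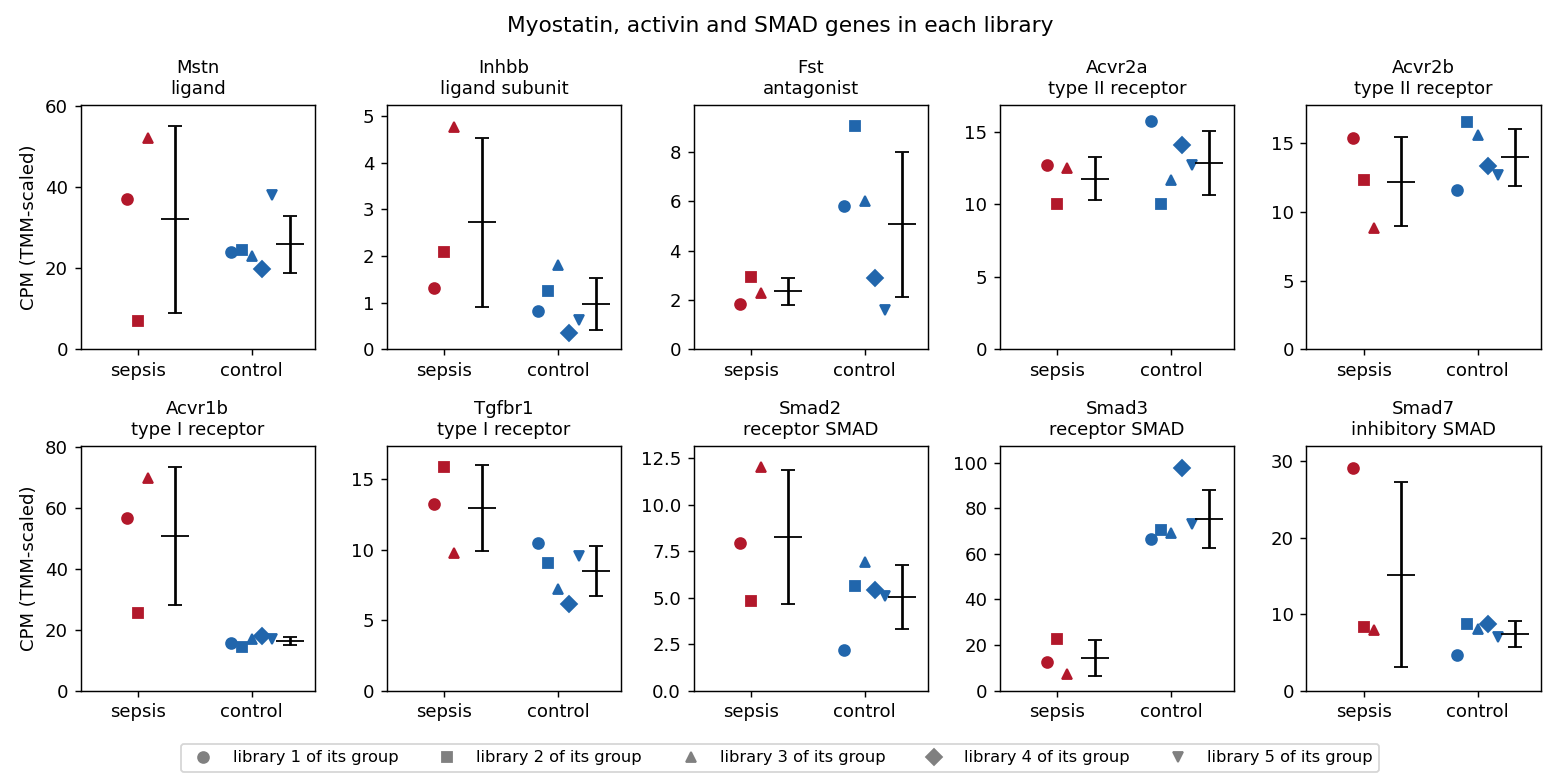
TMM-scaled CPM of each of the 10 genes in every library, sepsis (red, left) and control (blue, right), 1 symbol per library, with the mean and SD as a black bar beside each group. Smad3 sits between 7.50 and 22.8 CPM in sepsis, below all controls, and Acvr1b between 25.5 and 69.8 CPM, above all controls.

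Upstream sequences are shown for the ligand gene Mstn and for the pair of members with non-overlapping groups, Acvr1b and Smad3, because their base composition differs. They are the 250 bases before the annotated start, read 5′ to 3′ on the gene's strand from RefSeq on GRCm38.p6, a build earlier than the GRCm39 used for the counts. Capitals mark the motifs searched on either strand. Mstn lies at chr1:53061390-53061639 (+), Acvr1b at chr15:101173822-101174071 (+) and Smad3 at chr9:63757995-63758244 (-).
Mstn: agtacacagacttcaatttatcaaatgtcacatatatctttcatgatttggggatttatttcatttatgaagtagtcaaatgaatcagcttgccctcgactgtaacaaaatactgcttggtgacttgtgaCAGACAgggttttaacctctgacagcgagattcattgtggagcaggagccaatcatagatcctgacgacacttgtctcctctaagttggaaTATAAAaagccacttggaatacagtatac
Acvr1b: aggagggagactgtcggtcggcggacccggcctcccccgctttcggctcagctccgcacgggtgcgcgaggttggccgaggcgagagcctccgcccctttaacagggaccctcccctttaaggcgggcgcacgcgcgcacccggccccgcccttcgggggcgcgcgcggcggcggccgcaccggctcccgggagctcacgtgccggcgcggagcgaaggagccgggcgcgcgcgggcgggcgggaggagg
Smad3: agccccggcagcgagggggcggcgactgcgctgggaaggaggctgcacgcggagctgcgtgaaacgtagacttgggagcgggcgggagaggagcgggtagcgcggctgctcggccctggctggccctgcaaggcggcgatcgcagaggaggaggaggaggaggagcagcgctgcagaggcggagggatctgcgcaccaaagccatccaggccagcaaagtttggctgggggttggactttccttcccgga

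Of the 10 genes, 7 had a RefSeq window that was searched, 8 windows in all since Tgfbr1 has a pair of starts. No window of Fst, Smad2 or Smad7 was searched, so their letters are not described. The Mstn window was 38.4% G and C, against 78.8% for Acvr1b, 69.2% for Smad3 and a median of 52.4% over 32851 windows of that length. The motifs were TATAAA (the TATA box), CAGACA (a SMAD binding element), CAGCTG (an E-box) and GTAAACA (a forkhead motif), none of which overlapped another in these windows. TATAAA stood in the Mstn window alone among the 8, 29 bases before the start, and in 12.4% of all windows. CAGACA stood in the Mstn window 120 bases before the start and in 1 Tgfbr1 window 203 bases before it, and in 17.1% of all windows. CAGCTG and GTAAACA, held by 13% and 3.17% of all windows, were not among the letters of the 8 windows. These matches describe the letters only.

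Mstn (ENSMUSG00000026100) did not differ between the groups beyond the spread of the septic libraries. It had 37.1, 6.90 and 52.1 CPM in sepsis 1, 2 and 3, against 24.1, 24.4, 23.1, 19.8 and 38.1 CPM in controls 1 to 5. Sepsis 2 was below every control, sepsis 3 above every control, and sepsis 1 within the control range just under control 5. The means were 32.0 ± 23.0 CPM in sepsis and 25.9 ± 7.07 CPM in controls (SD, n = 3 and 5). The log2 fold change was 0.30 (SE 0.54, 95% interval -0.95 to 1.54), with an edgeR adjusted p of 0.674 (0.0118 to 0.881 over its alternatives). Without sepsis 2 it was 0.79 with an adjusted p of 0.0118, and without sepsis 3 it was -0.27 with an adjusted p of 0.751, so the call turned on sepsis 2 and the sign on sepsis 3. The SD of its log2 level among the septic libraries was 1.47, against a median of 0.29 over all genes tested, and 0.336% of those genes had a larger one; among controls it was 0.34, against a median of 0.22.

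Inhbb (ENSMUSG00000037035), which encodes the beta B subunit of activin B, was near the detection limit. It had 5, 10 and 21 reads in sepsis 1, 2 and 3, against 3, 4, 6, 1 and 2 reads in controls 1 to 5. In CPM these were 1.32, 2.09 and 4.78 in sepsis, against 0.829, 1.25, 1.80, 0.360 and 0.635 in controls. Sepsis 2 and 3 lay above every control and sepsis 1 within their range. The ratio of mean CPM was 2.80, and a two-sided exact permutation test on CPM gave p = 0.0357 over 56 splits, not adjusted for other genes. Inhbb did not pass the filter on low counts. With no filter edgeR gave a log2 fold change of 1.47 (SE 0.55) and an adjusted p of 0.0372 over 16368 genes. Without sepsis 1 edgeR gave 1.74 (SE 0.55) and an adjusted p of 0.0212. There the gene passed the filter only through its reads in sepsis 2 and 3, so that p-value gives no support for a rise.

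Fst (ENSMUSG00000021765) did not pass the test, and its controls were spread widely. It had 1.85, 2.93 and 2.27 CPM in sepsis 1, 2 and 3, from 7, 14 and 10 reads, against 5.81, 9.07, 6.0, 2.88 and 1.59 CPM in controls 1 to 5, from 21, 29, 20, 8 and 5 reads. All 3 septic libraries lay below controls 1, 2 and 3, and within the range of controls 4 and 5 but for sepsis 2, which was just above control 4. The log2 fold change was -1.09 (SE 0.47, 95% interval -2.11 to -0.07), with an edgeR adjusted p of 0.0695 (0.0101 to 0.363 over its alternatives). It passed without control 5, the lowest library, at -1.32 and an adjusted p of 0.0165. An antisense gene, Gm47040, overlaps Fst by 289 bases, but not at its 3′ end, in the GENCODE annotation of an earlier build.

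The type II receptor genes, whose products bind myostatin and activins directly, showed small differences with wide overlap. Acvr2a (ENSMUSG00000052155) had 12.7, 10.0 and 12.5 CPM in sepsis 1, 2 and 3, against 15.8, 10.0, 11.7, 14.0 and 12.7 CPM in controls 1 to 5. Acvr2b (ENSMUSG00000061393) had 15.4, 12.3 and 8.87 CPM in sepsis, against 11.6, 16.6, 15.6, 13.3 and 12.7 CPM in controls. For this pair only sepsis 3 of Acvr2b lay outside the control range. The log2 fold changes were -0.13 for Acvr2a (95% interval -0.56 to 0.30) and -0.20 for Acvr2b (-0.66 to 0.26), with edgeR adjusted p-values of 0.603 and 0.455, which leaves room for differences of those sizes in either direction. Both signs turned, to 0.28 and 0.21, with library totals alone, a scaling that moved the median of all genes from 0.01 to 0.43; relative to that median they were -0.15 and -0.22. The 3′ end of Acvr2a overlaps the 3′ end of Orc4 on the other strand by 446 bases in GENCODE, and with the strand setting of the counting not given, reads of the pair may not be told apart. Acvr2b made up 54.7%, 55.1% and 41.5% of the reads of the pair in sepsis, against 42.4%, 62.4%, 57.1%, 48.7% and 50.0% in controls.

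Acvr1b (ENSMUSG00000000532), the type I receptor gene through which activins mainly signal, rose in every septic library. It had 56.7, 25.5 and 69.8 CPM in sepsis 1, 2 and 3, against 15.8, 14.4, 16.8, 18.0 and 16.8 CPM in controls 1 to 5. The groups did not overlap, and sepsis 2 was nearest to the controls. The means were 50.7 ± 22.7 CPM in sepsis and 16.4 ± 1.36 CPM in controls (SD, n = 3 and 5), and the log2 fold change was 1.63 (SE 0.26, edgeR adjusted p = 0.000339). Its SD on the log2 scale was 0.75 among septic libraries and 0.12 among controls. It passed the threshold under all 17 alternatives, with log2 fold changes of 1.32 to 2.02 and adjusted p-values of 1.70e-07 to 0.00233.

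Tgfbr1 (ENSMUSG00000007613), which encodes the type I receptor for TGF-beta and also serves myostatin, rose by a smaller amount. It had 13.2, 15.9 and 9.78 CPM in sepsis 1, 2 and 3, against 10.5, 9.07, 7.20, 6.12 and 9.53 CPM in controls 1 to 5. Sepsis 1 and 2 lay above every control and sepsis 3 below control 1. The log2 fold change was 0.61 (SE 0.23, edgeR adjusted p = 0.0421), and it passed under 7 of 17 alternatives, with adjusted p-values of 0.00288 to 0.178. The call was lost without control 2, 3, 4 or 5 and without sepsis 1 or 2, at log2 fold changes of 0.62, 0.54, 0.52, 0.64, 0.59 and 0.43 in that order. In reads of the type I pair, Tgfbr1 made up 18.9%, 38.4% and 12.3% in sepsis 1, 2 and 3, against 40.0%, 38.7%, 30.0%, 25.4% and 36.1% in controls 1 to 5. Sepsis 1 and 3 were below every control and sepsis 2 was within the control range.

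**Figure D2:**
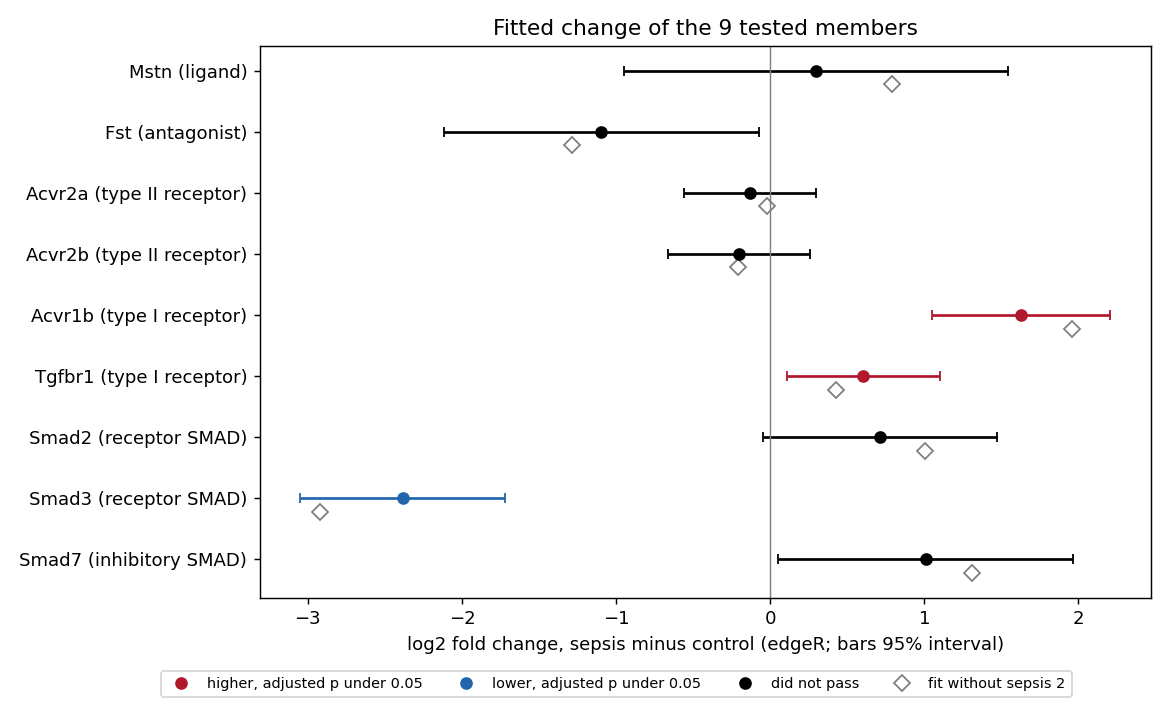
Log2 fold change (sepsis minus control) of the 9 tested members with 95% intervals from edgeR, in red or blue where the adjusted p was under 0.05 and black otherwise, and open grey diamonds for the fit without sepsis 2. Acvr1b at 1.63 and Smad3 at -2.38 lie farthest from 0, and Mstn moves from 0.30 to 0.79 when sepsis 2 is left out.

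Smad3 (ENSMUSG00000032402), which encodes a SMAD protein phosphorylated by both type I receptors, fell in every septic library. It had 12.5, 22.8 and 7.50 CPM in sepsis 1, 2 and 3, against 66.4, 70.3, 69.3, 97.6 and 73.0 CPM in controls 1 to 5. The highest septic library was far below the lowest control. The means were 14.3 ± 7.81 CPM in sepsis and 75.3 ± 12.7 CPM in controls (SD, n = 3 and 5), and the log2 fold change was -2.38 (SE 0.30, edgeR adjusted p = 7.95e-05). It passed under all 17 alternatives, with log2 fold changes of -2.92 to -1.95 and adjusted p-values of 1.25e-15 to 0.00106. These are bulk samples, so fewer cells of a type and less RNA per cell cannot be told apart.

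Smad2 (ENSMUSG00000024563), whose product shares the receptors and the common partner of the Smad3 protein, did not pass. It had 7.95, 4.81 and 12.1 CPM in sepsis 1, 2 and 3, from 30, 23 and 53 reads, against 2.21, 5.63, 6.90, 5.40 and 5.08 CPM in controls 1 to 5, from 8, 18, 23, 15 and 16 reads. Sepsis 1 and 3 lay above every control and sepsis 2 within their range. The log2 fold change was 0.71 (SE 0.35, 95% interval -0.04 to 1.47), with an edgeR adjusted p of 0.107 (0.0137 to 0.498 over its alternatives). Without sepsis 2 it passed, at 1.01 and an adjusted p of 0.0262, and without sepsis 3 it was 0.33. Smad3 supplied 61.0%, 82.6% and 38.4% of the reads of the Smad2 and Smad3 pair in sepsis 1, 2 and 3, against 96.8%, 92.6%, 90.9%, 94.8% and 93.5% in controls 1 to 5. All septic shares were below all control shares, a comparison within each library that no scaling between libraries can move; it was not tested, since the pair was chosen with the values known.

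Smad7 (ENSMUSG00000025880), the feedback inhibitor, was high in a single septic library. It had 29.1, 8.37 and 7.96 CPM in sepsis 1, 2 and 3, against 4.70, 8.75, 8.10, 8.64 and 6.99 CPM in controls 1 to 5. Sepsis 2 and 3 lay within the control range and sepsis 1 far above it. The log2 fold change was 1.01 (SE 0.43, 95% interval 0.05 to 1.97), with an edgeR adjusted p of 0.0749 (0.0122 to 0.698 over its alternatives). Without sepsis 1 it was 0.14. Without sepsis 2 or 3 it was 1.31 or 1.32, and passed at adjusted p-values of 0.0287 and 0.0273.

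The septic libraries did not keep the same order across the members. Sepsis 2 was nearest to the control mean for Acvr1b and Smad3, at 0.64 and -1.72 on the log2 scale, but farthest from it for Mstn, at -1.91, and for Tgfbr1, at 0.91. Sepsis 3 was farthest for Inhbb, Acvr1b, Smad2 and Smad3, at 2.29, 2.09, 1.26 and -3.33. Sepsis 1 was farthest for Smad7, at 1.97, and for Fst, at -1.45. Smad7, Acvr1b and Smad3 had SDs of 0.99, 0.75 and 0.74 among septic libraries, and 2.21%, 6.01% and 6.06% of all genes tested had larger ones. Fst was the reverse case, with an SD of 0.23 among septic libraries and 0.78 among controls. Fst supplied 4.76%, 29.8% and 4.18% of the reads of the Fst and Mstn pair in sepsis 1, 2 and 3, against 19.4%, 27.1%, 20.6%, 12.7% and 4.00% in controls 1 to 5, and the groups overlapped.

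**Figure D3:**
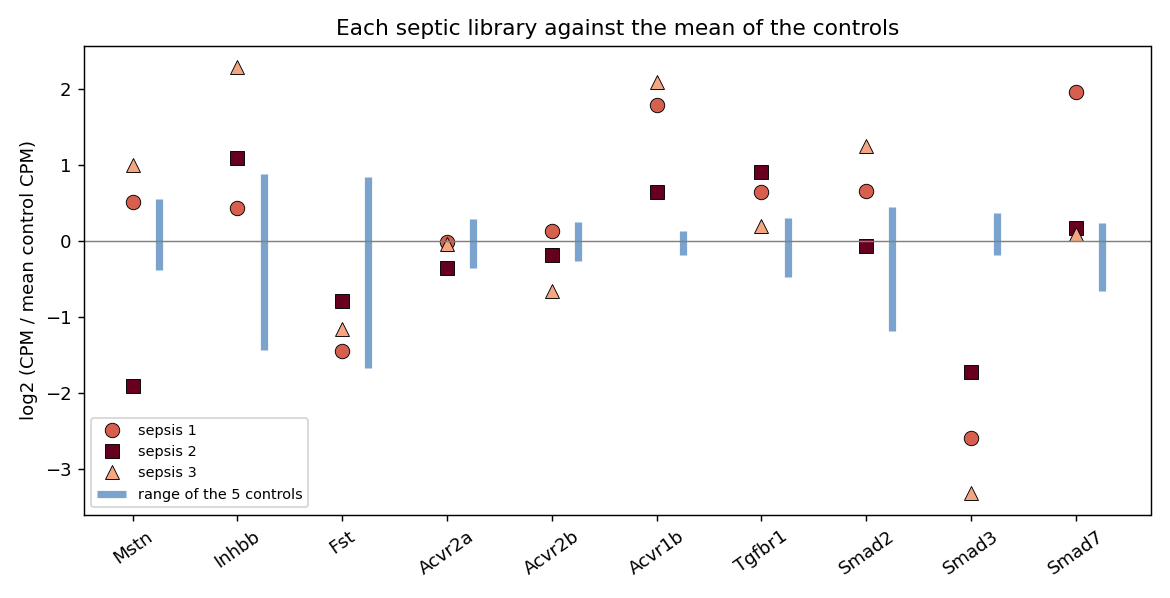
Log2 ratio of each septic library's CPM to the mean control CPM for the 10 genes (symbols), with the range of the 5 controls as a blue bar beside them. For Smad3 all 3 libraries lie below the control range (-1.72 to -3.33) and for Mstn sepsis 2 lies below it (-1.91), sepsis 3 above it (1.01) and sepsis 1 within it (0.52).

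Marker genes of other cells moved as well, where 25.2% of all genes tested were called higher and 25.2% lower. The summed CPM of 8 fibroblast and progenitor markers was 268 to 380 in sepsis and 891 to 1607 in controls, and 8 of 8 fell. Of 8 macrophage markers 6 were tested, 4 rose and none fell (2 rose without sepsis 2), with sums of 287 to 484 CPM in sepsis and 71.7 to 181 CPM in controls. Of 8 neutrophil markers 4 were tested and all 4 rose, with sums of 66.2 to 148 CPM in sepsis and 0 to 1.27 CPM in controls. These 4 passed the filter on low counts only through the septic libraries, so a tested marker could only rise. Of 8 endothelial markers 4 rose and 1 fell (2 fell without sepsis 3), with sums of 140 to 209 CPM in sepsis and 135 to 140 CPM in controls. The 8 skeletal muscle fibre markers all fell, with sums of 65666 to 93822 CPM in sepsis and 149171 to 177034 CPM in controls, and remained by far the most abundant of these lists. Of the tested tendon markers 4 of 5 fell, with sums of 9.32 to 23.4 CPM in sepsis and 132 to 220 CPM in controls. Kera had no read in sepsis and passed the filter on low counts only through the controls, so it could only fall. The tendon marker Fmod, with 15, 21 and 5 reads in sepsis 1, 2 and 3, also needed the controls to pass. Of the tested Schwann cell markers 4 of 6 fell, of smooth muscle and pericyte markers 2 of 6 fell, of satellite cell markers 1 of 3 rose, and of adipocyte markers 0 of 4 passed. No listed marker was at 0 in every library. With library totals alone 7 of 8 fibroblast and 7 of 8 fibre markers were called lower, 6 macrophage and 4 neutrophil markers higher, 6 endothelial markers higher with none lower, and 2 smooth muscle and pericyte markers higher with 1 lower, at a median log2 fold change of 0.12 against -0.30 with the scaling used elsewhere. The part of these cells in the changes of the 10 genes was not tested.

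The genes nearest to the called members were found by the mean absolute difference of the 8 centred log2 levels, over 6857 genes of sufficient level. For Acvr1b they were Eif3a, a translation initiation factor subunit, at 0.077, the glutamine synthetase gene Glul at 0.11 and BC005537 at 0.13. For Smad3 they were Osbpl6, a sterol-binding protein gene, at 0.12, the ferrireductase gene Steap3 at 0.13 and the endocytic adaptor gene Ston2 at 0.14. For Tgfbr1 they were the chaperone gene Hsph1 at 0.10, Nucb1 at 0.12 and the endothelial cadherin gene Cdh5 at 0.13. For Mstn no gene came as near: Atxn7l3, Fbp2, the muscle fructose bisphosphatase gene, and Mylk2, the skeletal myosin light chain kinase gene, lay at 0.34, 0.35 and 0.35. With 8 libraries in a pair of groups, such nearness describes the profiles only.

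Around the 10 genes, 104 other genes of the superfamily were listed by role, and 74 had enough reads. Of these 13 rose, 32 fell and 29 did not pass, with a median log2 fold change of -0.37 against 0.01 over all genes tested. Over all genes tested 25.2% were called higher and 25.2% lower, 50.4% in all. Counts for the lists below stand beside those shares, which several of them are near, and no list was tested against them. Scaling by library totals alone gave 20 higher and 15 lower, so the balance of directions depends on the scaling. Genes named as examples had the smallest p-values in their list; Inhba, Tgfbr2, Tgfbr3, Smad4, Smad5, Cdkn1a, Col3a1, Bmpr1a and Bmpr2 were added after their values were seen.

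Among the activin, GDF and TGF-beta ligand genes outside the 10, those with enough reads were Gdf11, Tgfb2 and Tgfb3. These fell, and none of them encodes an activin subunit. Of 9 listed 3 were tested and all 3 fell (2 with library totals alone, where Tgfb3 was not called). Gdf11, the closest relative of Mstn, had 1.32, 2.30 and 2.50 CPM in sepsis 1, 2 and 3, against 8.57, 13.8, 17.4, 14.0 and 10.5 CPM in controls 1 to 5. Every septic library lay below every control, and Gdf11 fell 6.10-fold (log2 fold change -2.61, SE 0.32, edgeR adjusted p = 2.04e-05). It had 5, 11 and 11 reads in sepsis 1, 2 and 3, too few to pass the filter on low counts without the controls. The same held for Gdf10, Pcsk6 and Fmod. Tgfb2 and Tgfb3 fell 2.89-fold and 1.76-fold. Inhba, the gene of the other main activin subunit, was below the filter, with 11 reads over the septic libraries and 42 over the controls. Of 10 BMP-type ligand genes 3 were tested and only Gdf10 fell, at 0.930 ± 0.808 CPM in sepsis and 4.05 ± 2.42 CPM in controls, a call lost with library totals alone and with group variances in limma voom. With the stricter filter, or without control 1, 2 or 4, Gdf10 did not pass the filter on low counts and no gene of this list was called.

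Of 12 genes of ligand processing and latency 8 were tested, 5 fell and 1 rose (4 and 2 without sepsis 1, 3 and 1 with library totals alone). Furin, the protease that cleaves superfamily precursors, rose 1.80-fold, while the related protease gene Pcsk6 fell 5.39-fold. The latent TGF-beta binding protein genes Ltbp4 and Ltbp1 fell 4.96-fold and 2.53-fold. Of 15 secreted antagonist genes 9 were tested, 5 fell and none rose (3 fell with library totals alone). Fmod, a matrix proteoglycan gene, fell 19.3-fold, and decorin (Dcn), which binds TGF-beta and myostatin, fell 1.84-fold. Nbl1, a BMP antagonist gene, fell 1.95-fold, a call lost with library totals alone. Fmod and Dcn are also on the tendon and fibroblast marker lists, whose sums were lower in sepsis as given above. Those sums include the 2 genes, so they are not separate from these falls. Dcn alone averaged 290 CPM in sepsis and 535 CPM in controls, a large part of the fibroblast sum.

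Of 15 receptor and co-receptor genes 13 were tested, 6 fell and 2 rose (1 rose without sepsis 1; 3 fell and 3 rose with library totals alone). The risers were Tgfbr2, the type II receptor gene for TGF-beta, at 17.4 ± 1.69 CPM in sepsis and 9.48 ± 2.33 CPM in controls, and the co-receptor gene Tgfbr3, whose log2 fold change was 0.81 (SE 0.25) and 0.38, not called, without sepsis 1. Those that fell were the BMP co-receptor gene Hjv, 7.70-fold, to 61.3 ± 34.8 CPM in sepsis against 473 ± 39.5 CPM in controls, Rgma 5.15-fold, the type I receptor gene Acvr1 2.35-fold, Rgmb 1.96-fold, and Bmpr1a and Bmpr2, with log2 fold changes of -0.58 and -0.49. The last 3 were not called with library totals alone, where they had -0.54, -0.15 and -0.07.

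Of 14 other SMAD and cofactor genes 10 were tested, 5 rose and 2 fell (1 fell without control 4 or sepsis 2; 7 and 1 with library totals alone), with a median of 0.55. Smad4, the common partner gene, had 46.6, 44.4 and 60.7 CPM in sepsis 1, 2 and 3, against 30.4, 33.1, 31.5, 34.9 and 31.4 CPM in controls 1 to 5. It rose 1.57-fold with no overlap (edgeR adjusted p = 0.00149). The BMP-side genes Smad1 and Smad5 rose 2.05-fold and 1.70-fold. Tgif1, a repressor of SMAD-dependent transcription, rose 7.70-fold, with 37.4, 21.3 and 66.9 CPM in sepsis against 4.13 to 8.70 CPM in controls, and Zeb1 rose 1.69-fold. Zfyve9, whose product presents receptor-activated SMAD proteins to the receptor, fell 1.96-fold.

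Of 14 SMAD turnover and phosphatase genes all were tested, 4 fell and 2 rose (4 higher and 0 lower with library totals alone), with a median of -0.10, which was 0.06 without sepsis 2. The phosphatase gene Ctdsp2 rose 1.71-fold and its paralog Ctdsp1 fell 1.60-fold, a call lost with library totals alone, as was that of the ligase gene Stub1, which fell 1.63-fold. The ligase gene Wwp2 rose 2.02-fold. Of 15 known SMAD target genes 14 were tested, 6 fell and 3 rose (3 and 5 when scaled by library totals alone). The cell-cycle inhibitor gene Cdkn1a had 332, 168 and 587 CPM in sepsis 1, 2 and 3, against 19.1 to 88.8 CPM in controls, and rose 6.45-fold, and Fbxo30, a ubiquitin ligase gene restrained by BMP signalling in mouse muscle, rose 3.08-fold. The fibrillar collagen genes Col1a1, Col1a2 and Col3a1 fell, with log2 fold changes of -5.26, -4.22 and -4.53, and Col1a1 and Col3a1 are also fibroblast markers. The call of Col3a1 was lost with group variances in limma voom and with the replicate number as a block.

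**Figure D4:**
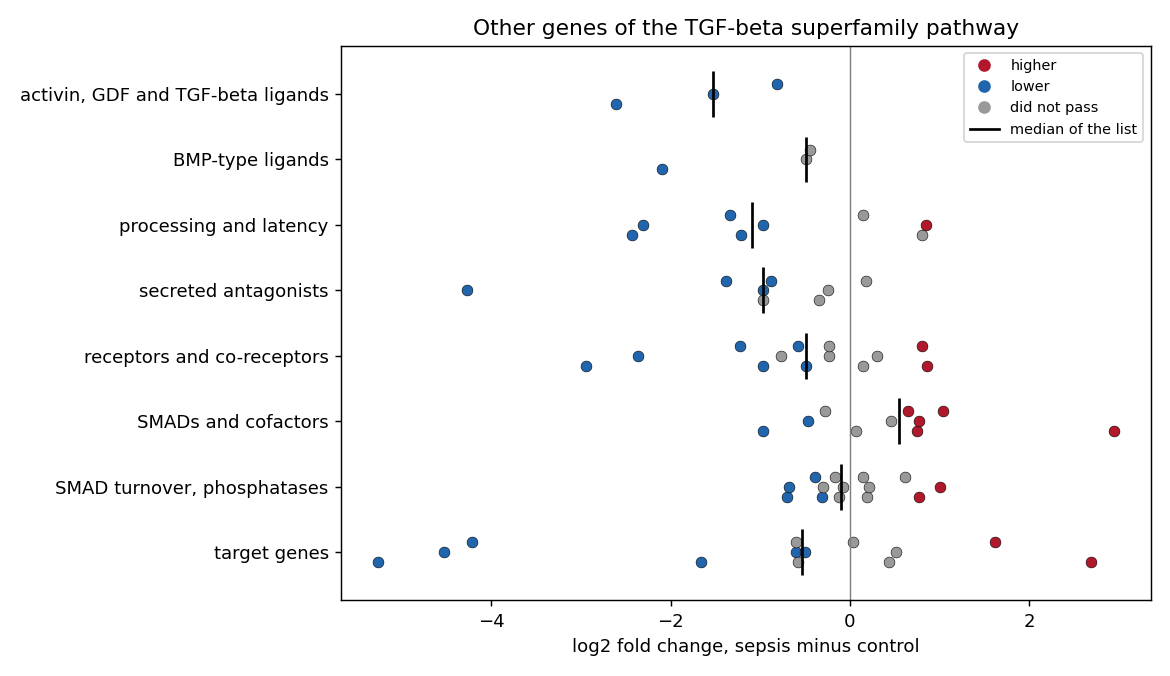
Log2 fold change (sepsis minus control) of the tested pathway genes outside the 10 that are reported here, by role, in red where higher and blue where lower at an edgeR adjusted p under 0.05, grey otherwise, and a black line for the median of all tested genes of each list. The SMAD and cofactor list has a median of 0.55 and the other 7 lists have medians below 0 with this scaling.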

How the data were processed

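The values deposited are raw read counts by gene in 8 columns, 1 for each library, made by the authors on the genome build GRCm39 per the submitters' processing notes. Libraries were made with a QuantSeq 3′ mRNA kit from 25 ng of total RNA, per the labels' protocols. No source used here names the aligner, the counter, its strand setting or the annotation.

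Counts were tested with edgeR 4.0.16 in R 4.3.3: expression filter (minimum count 10, minimum total 15), trimmed mean of M values (TMM) scaling, robust quasi-likelihood F test of sepsis against control over 8 libraries with no covariate, and Benjamini-Hochberg adjustment at 0.05. SE is the size of the log2 fold change divided by the root of F. limma 3.58.1 and DESeq2 1.42.0 served as alternatives, with other scalings, filters and each library left out. On simulated data the procedure recovered 19.7% of 1.5-fold, 65.1% of 2-fold and 96.4% of 4-fold changes. The simulation changed a far smaller share of genes than was called here, so its rates may not carry over. No pair of libraries agreed within sampling noise. The members and lists were chosen with earlier results of these data known. Named genes were the 10 members, up to 4 called genes per list with the smallest adjusted p, and the 3 nearest profiles (average log2 CPM of at least 3, pseudocount of 1 CPM, predicted genes passed over) of Mstn and of each called member. Some listed genes enter the counts but are not reported here by name. RefSeq windows were searched over the 250 bases before the start.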

Additional observations from a re-analysis of the deposited data

Results flagged for a closer look

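Among the 10 genes, 2 had a control library far from the other 4. Mstn was at 38.1 CPM in control 5, against 19.8 to 24.4 CPM in the other controls. Smad3 was at 97.6 CPM in control 4, against 66.4 to 73.0 CPM in the other controls. With 10 genes examined, chance gives such a library in about 1 gene in 20. Neither library changed a call of its gene when left out: Mstn had an edgeR adjusted p of 0.522 without control 5 and Smad3 of 0.000168 without control 4. No explanation was tested.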

How the results depend on the processing

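The calls of Acvr1b and Smad3 held under all 17 alternatives, and Acvr2a and Acvr2b passed under none of them. Library totals alone gave 4251 genes higher and 1392 lower, against 2475 and 2468; 4 members higher (Smad2 at 1.12 and Smad7 at 1.40 passing); 20 pathway genes higher and 15 lower, against 13 and 32; and turned Acvr2a to 0.28 and Acvr2b to 0.21. Members called higher were 1 with upper-quartile factors, group variances in limma voom or the replicate block, where Tgfbr1 had 0.57, 0.59 and 0.53, and the DESeq2 test lost Tgfbr1 at 0.61 and passed Smad7 at 1.03. Group variances turned Mstn to -0.14. Leaving out 1 library gave 1 to 4 members higher and 1 to 2 lower, with log2 fold changes of -0.27 (without sepsis 3) to 0.79 for Mstn, -1.32 to -0.79 for Fst, 0.33 to 1.01 for Smad2, 0.14 to 1.32 for Smad7 and 0.43 to 0.78 for Tgfbr1. Of 28 pathway genes taken by the naming rule, 464 of 471 values kept direction and side, 7 lost the call and 0 turned. Shared replicate numbers gave no sign of pairing: same-numbered deviations correlated at -0.13, 0.06 and -0.02. Differently numbered ones reached 0.195 (sepsis 1 with control 5), so these few correlations cannot settle whether libraries were paired. With the replicate number as a block, 2 members were lower, as Fst passed at -1.55, and 1741 genes were higher and 1884 lower. At these depths, changes of Inhbb, Fst and Smad2 rest on few reads.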
